A study of Caenorhabditis elegans with 12 samples.

Results

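The aspartyl and cathepsin protease genes of Caenorhabditis elegans were taken as every gene of the deposited count table whose symbol is asp, cpr, cpl or cpz followed by a number. The rule found 28 of 46726 genes: 17 asp genes (aspartyl proteases of the pepsin and cathepsin D type), 8 cpr genes (cathepsin B-like cysteine proteases), 1 cpl gene (cathepsin L) and 2 cpz genes (cathepsin Z). The rule used the symbols and no measured value, but it was set with earlier results of these data known. Of the 28, 25 had enough counts to be tested, asp-15 stayed under the filter on low counts, and asp-18 and asp-19 had no count in any library.

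Aspartyl and cysteine cathepsins are made as inactive precursors, pass through the secretory pathway and are activated by cleavage in acid compartments. They break down protein in lysosomes, and in the worm gut many members also act as digestive enzymes. Some have further known roles: the aspartyl proteases asp-3 and asp-4 act in necrotic cell death of neurons, cpl-1 is needed in the embryo and in molting, and cpz-1 is needed in molting.

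The libraries came from larvae with the transgene F16F9.3pro::dsRed, whose promoter labels the amphid sheath (AMsh) glia, the cells around the sensory endings of the amphid neurons. Wild type was strain OS4079, and the mutant was strain OS11549, which carries che-2(e1033) beside the same reporter; che-2 encodes an intraflagellar transport protein needed to build cilia. The series asks how AMsh glia respond to the loss of these cilia. Pooled larvae of each genotype grew from L1 arrest at 20 °C for 36 to 42 h in liquid culture with E. coli HB101 and were harvested as L3 and L4 larvae, in 3 cultures per genotype with the codes E30, E35 and E36. Flow cytometry split each culture into a dsRed-positive fraction, here AMsh, and a dsRed-negative fraction of all other cell types, here non-AMsh, which gave 4 groups of 3 libraries. Both genotypes thus carry the reporter and differ in the che-2 allele and in the strain that holds it.

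Library totals lay between 15420762 and 26019499 counts, with 14101 to 19298 genes detected. A pair of libraries had the fewest genes: wild type AMsh E30 with 14101 and che-2 AMsh E35 with 15711. Of 7 AMsh glia markers, 5 passed as higher in the AMsh fraction in each genotype, and their summed level, in CPM (the library's counts scaled to a common total), was 470 to 3640 there and 89.3 to 195 in the other fraction. Markers of other tissues were not clearly lower in the AMsh fraction. In wild type, 4 body muscle markers summed to 2880 to 3837 CPM in AMsh and 2983 to 3369 CPM in non-AMsh. For 12 intestine markers the sums were 640 to 1273 and 806 to 1332 CPM. Levels in the AMsh fraction therefore cannot be taken as those of glia alone. The che-2 transcript had 0 to 80 counts in wild type libraries and 6 to 223 in che-2 libraries; the labels do not say whether e1033 removes the transcript, so its level does not check the genotype.

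Levels below are CPM on library sizes scaled by the trimmed mean of M values (TMM), as mean ± SD over the 3 libraries of a group. Differences are log2 fold changes with their standard error (SE) from edgeR's quasi-likelihood test over all 16690 genes with enough counts, with p adjusted by Benjamini-Hochberg over those genes and a threshold of 0.05. Levels of different genes are set against each other only as CPM per kilobase of summed exon length.

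The proteases made up a large and uneven part of every library. Together they took 1.53% of all counts in che-2 AMsh E35, the lowest library, and 4.47% in che-2 non-AMsh E30, the highest. By group the share was 3.40 ± 0.509% in wild type AMsh, 3.63 ± 0.454% in wild type non-AMsh, 2.60 ± 1.40% in che-2 AMsh and 3.05 ± 1.25% in che-2 non-AMsh. These ranges overlapped, and the spread between che-2 cultures was wider than that between wild type cultures in both fractions.

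A few members held most of this share. The 10 members with the highest mean CPM made up 85.1 to 91.9% of the family's summed CPM in each library, and cpr-9 alone 14.4 to 34.0%. By their mean over all libraries, 16 of the 28 members reached 100 CPM, 21 reached 10 CPM and 24 reached 1 CPM.

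The order per kilobase, over all 12 libraries, ran from cpr-9 (5132 CPM per kilobase) to cpz-1 (3002), cpr-5 (2859), asp-1 (2193), asp-3 (2192), cpr-4 (2013), cpr-6 (1664), cpr-1 (1646), asp-6 (1105), asp-5 (863) and cpl-1 (768). Cathepsin B-like genes therefore stood at both the top of the family and, with cpr-2 (21.8), cpr-3 (17.7) and cpr-8 (16.4), in its lower part. Of the 10 pairs of neighbours in this order, 6 overlapped between their libraries in every group, and the other 4 were apart in 1 group each: cpr-5 above asp-1 in che-2 non-AMsh, and, in wild type non-AMsh, cpr-4 above cpr-6, cpr-1 above cpr-6 and cpr-1 above asp-6. In wild type AMsh, asp-1 was at 2767 ± 277 and asp-3 at 2710 ± 759 CPM per kilobase, and cpz-1 at 3140 ± 1119 against 2516 ± 614 for cpr-5. cpr-9 was at 6476 ± 3529 in the same group.

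**Figure D1:**
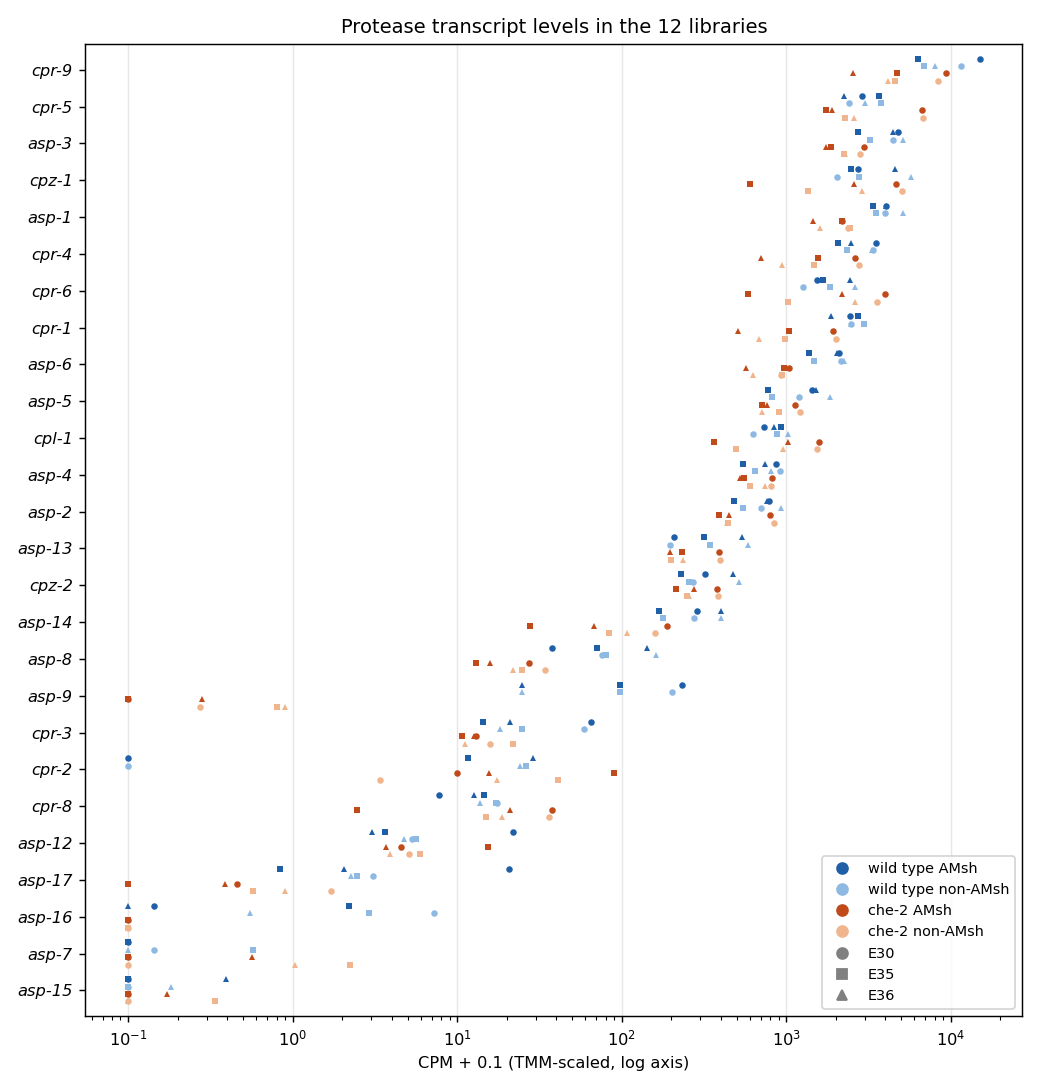
Level in every library of the 26 members that had at least 1 count anywhere, as CPM + 0.1 on a log axis; colours mark the 4 groups and shapes the cultures. The genes span from means under 1 CPM (asp-7 and asp-15) to 14993 CPM in 1 library (cpr-9), and asp-9 is the member at 24.5 CPM or more in all wild type libraries and under 1 CPM in all che-2 libraries.

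Of the members, 22 lie on chromosome V, 4 on X, 1 on IV (asp-9) and 1 on I (cpz-1), on build WBcel235. On chromosome V, 13 members form 8 adjacent pairs with no other coding gene between them, among them asp-18 and asp-19, which had no count. asp-12 lies 316 bases from asp-6 and 316 bases from asp-5, at 5.09 CPM per kilobase against 1105 and 863. cpr-8 starts 609 bases from cpr-5, at 16.4 against 2859 CPM per kilobase. asp-17, asp-16 and asp-15 lie next to one another and then to asp-1, at 2.35, 0.883 and 0.0483 against 2193 CPM per kilobase. A high level of one gene was thus not shared by the gene beside it in these 3 stretches.

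Counting sets limits on a few genes. asp-2, asp-4 and cpz-2 each overlap a coding gene on the opposite strand (inx-10, R12H7.4 and gcy-34), and the strand setting of the counting is not given in the sources used here, so their reads cannot be assigned with certainty. How reads shared by similar paralogs were counted is not given either, and the low values of genes that lie next to an abundant paralog are uncertain for that reason.

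The first comparison asked whether the proteases differed between the AMsh and the non-AMsh fraction. They did not separate the fractions: 0 of the 25 tested members passed in wild type, where 0.437% of all tested genes passed, and 0 of 25 in che-2, where 0.593% passed. At an unadjusted p under 0.05 there were 0 members in wild type, beside 3.81% of all genes, and 1 in che-2, beside 2.98%, and DESeq2 also called 0 in each (1.05% and 1.10% of all genes). In bulk samples fewer cells of a type and less RNA per cell cannot be told apart.

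cpr-9, the most abundant cathepsin B-like gene, illustrates the likeness. In the order E30, E35 and E36, wild type AMsh held 14993, 6348 and 6266 CPM and wild type non-AMsh 11536, 6830 and 7952 CPM. In che-2 they were 9279, 4716 and 2529 CPM in AMsh and 8369, 4550 and 4141 CPM in non-AMsh. In each of the 4 groups E30 was the highest, and the fractions overlapped in both genotypes.

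Over the 10 most abundant members, the log2 difference of AMsh minus non-AMsh lay between -0.17 and 0.07 in wild type and between -0.24 and 0.04 in che-2, with SEs of 0.35 to 0.69. These SEs come from the fit of group means, which leaves out the pairing of fractions, so they hold the spread between cultures. Within cultures, the 60 differences of these 10 members in log2(CPM + 1) ran from -1.17 to 0.42, with a median absolute value of 0.16. With the culture as a block, 0 members passed in either genotype. Equal levels were not shown. The median over the tested members was -0.09 in wild type and -0.12 in che-2, beside -0.10 and 0.00 over all tested genes.

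The members with the smallest p between fractions had few counts in the groups compared. In che-2 it was asp-9, with 0, 0 and 5 counts in AMsh and 3, 12 and 17 in non-AMsh (log2 difference -2.92, SE 1.28, unadjusted p = 0.0409, adjusted p = 1.00 with edgeR), and it is the 1 member under 0.05; its fractions overlapped. Without che-2 AMsh E36 the difference was -6.63. asp-17 was at 20.5, 0.741 and 1.95 CPM in wild type AMsh and at 2.99, 2.35 and 2.16 CPM in wild type non-AMsh (log2 difference 1.62, SE 1.20, adjusted p = 1.00). A single library, wild type AMsh E30, was high: without it the difference was -0.89. In che-2 it was at 0.357, 0 and 0.289 CPM in AMsh and at 1.62, 0.471 and 0.797 CPM in non-AMsh. This was the 1 member whose fractions did not overlap in che-2, where 3.56% of all tested genes were lower without overlap. In wild type the fractions of 0 members stood apart, beside 8.65% of all tested genes.

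asp-7 had no count in any wild type AMsh library and 1, 10 and 0 counts in wild type non-AMsh. Taking 3 counts over the group in place of 0, its level was at least 3.79-fold lower in wild type AMsh, a limit that is gone without E35. In che-2 it had 0, 0 and 13 counts in AMsh and 0, 36 and 20 in non-AMsh. asp-16 had 1, 51 and 0 counts in wild type AMsh and 163, 60 and 11 in wild type non-AMsh. Both genes varied more between cultures than their fractions differed, and these limits cover counting error only.

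The proteases followed the culture more closely than the fraction. For each gene, the difference between the fractions of a culture and the difference between cultures of a group were taken on the log2(CPM + 1) scale. The first was the median absolute value over the 6 cultures. The second was the median absolute difference between pairs of cultures in a group, averaged over the 4 groups. The median over the 25 tested members was 0.19 between fractions and 0.78 between cultures, and the first was the smaller in 25 of 25 members. Over all 16690 tested genes the medians were 0.43 and 0.76, and the first was smaller in 86.1%. Among genes with a mean of at least 10 CPM, the medians were 0.18 and 0.78 for 21 members and 0.36 and 0.70 for 7716 tested genes. There the first was smaller in 21 members and in 89.1% of the tested genes. The cultures thus differed for the members about as for other genes, while the fractions of a culture differed less. The sets were not matched for level beyond this threshold, and over tested genes the difference between fractions fell from 0.43 to 0.36 with it. The part of level in the smaller difference of the members was not tested.

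**Figure D2:**
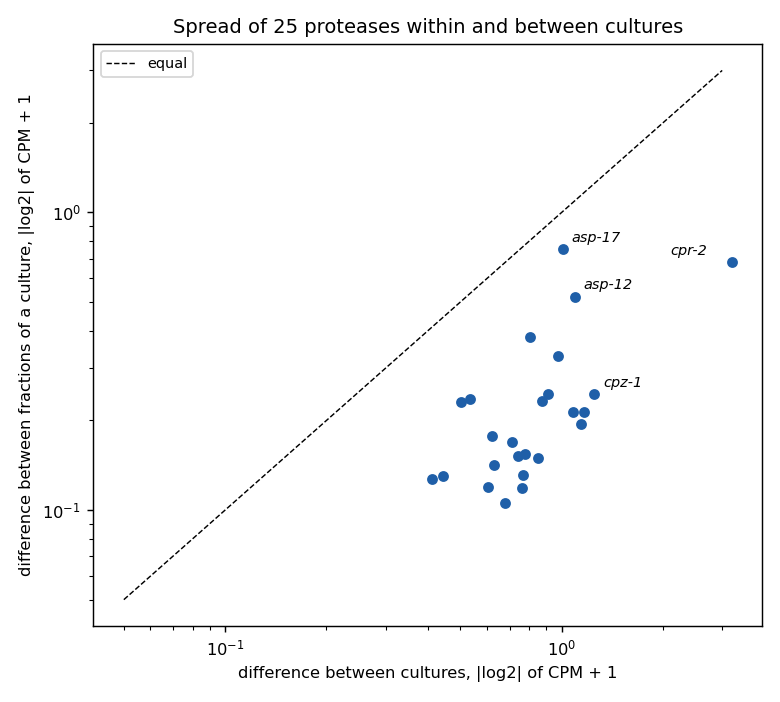
Each point is 1 of the 25 tested members; the x axis is its difference between cultures and the y axis its difference between the fractions of a culture, both in absolute log2 of CPM + 1 on log axes. All points lie under the dashed line of equal differences; cpr-2 is farthest to the right and asp-17 and asp-12 come nearest the line.

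The cathepsins with the highest levels showed the culture pattern in most detail. cpz-1 was at 2732, 2455 and 4591 CPM in wild type AMsh and 2042, 2764 and 5717 CPM in wild type non-AMsh, for E30, E35 and E36. In che-2 it was at 4664, 599 and 2569 CPM in AMsh and 5015, 1348 and 2898 CPM in non-AMsh. The wild type cultures were thus highest in E36 and the che-2 cultures in E30, and the lowest che-2 culture was E35 in both fractions.

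cpr-6, a further cathepsin B gene, was at 1529, 1680 and 2421 CPM in wild type AMsh and 1266, 1844 and 2602 CPM in wild type non-AMsh. In che-2 it was at 3959, 584 and 2179 CPM in AMsh and 3552, 1022 and 2626 CPM in non-AMsh. The order of cultures was that of cpz-1 in both che-2 fractions, and the highest che-2 AMsh culture was 6.78-fold above the lowest.

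cpr-5 was at 2883, 3661 and 2236 CPM in wild type AMsh and 2406, 3744 and 2991 CPM in wild type non-AMsh. In che-2 its values were 6717, 1734 and 1901 CPM in AMsh and 6773, 2283 and 2576 CPM in non-AMsh. cpl-1, the cathepsin L gene, was at 1584, 362 and 1019 CPM in che-2 AMsh and 1538, 496 and 956 CPM in che-2 non-AMsh, around wild type values of 629 to 1027 CPM. For cpr-6, cpr-5 and cpl-1 both E30 libraries of che-2 lay above every wild type library, and for cpz-1, cpr-6 and cpl-1 both E35 libraries of che-2 lay below every wild type library.

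cpr-4, a cathepsin B gene, and cpr-1, first described as a gut cysteine protease, followed another order of cultures in che-2. cpr-4 was at 3528, 2066 and 2488 CPM in wild type AMsh, 3363, 2338 and 3313 CPM in wild type non-AMsh, 2626, 1550 and 703 CPM in che-2 AMsh and 2761, 1462 and 936 CPM in che-2 non-AMsh. cpr-1 was at 2451, 2716 and 1871 CPM in wild type AMsh, 2474, 2965 and 2475 CPM in wild type non-AMsh, 1908, 1040 and 505 CPM in che-2 AMsh and 1997, 980 and 681 CPM in che-2 non-AMsh. Both were highest in che-2 E30 and lowest in che-2 E36, as was cpr-9.

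**Figure D3:**
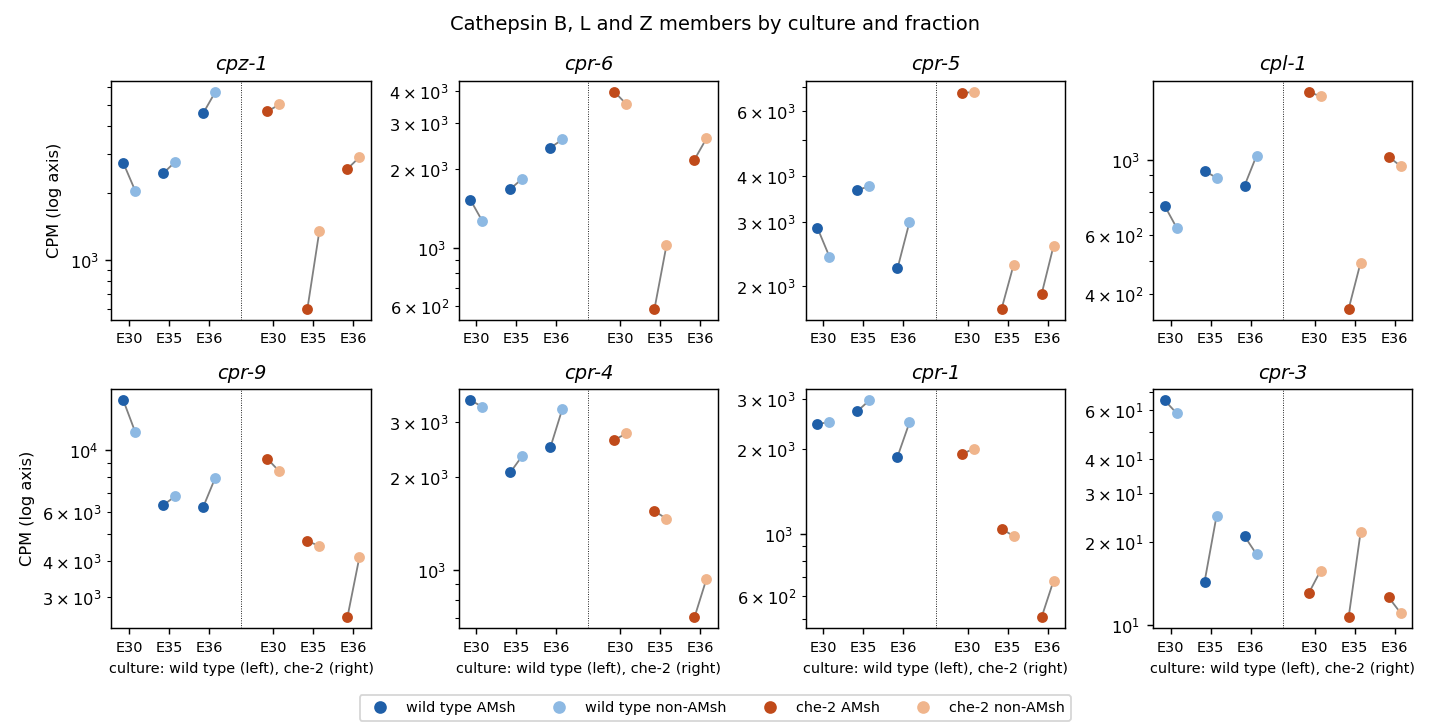
Levels of 8 cathepsin B, L and Z genes in CPM on log axes, by culture (E30, E35 and E36, with wild type on the left and che-2 on the right of each panel); lines join the fractions of a culture. In che-2, 7 of the 8 are highest in E30 in both fractions (cpr-3 is not), and the lowest culture is E35 or E36.

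Across the 21 members that reached 10 CPM, 16 were highest in E30 in both che-2 fractions (76.2%), beside 24.1% of all tested genes of that level. In wild type the most frequent pattern was a lowest value in E35 in both fractions, for 9 members (42.9%, beside 18.1%). These are counts over 3 cultures per genotype, with both fractions of a culture from the same animals, and they carry no test.

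Markers of molting, hypodermis and intestine also varied between the che-2 cultures, not all in the same order. With cultures in the order used above, the summed level of 15 molting genes was 4289, 397 and 1107 CPM in che-2 AMsh and 3428, 523 and 954 CPM in che-2 non-AMsh, against 2330 to 3125 CPM over the 6 wild type libraries, with 14 or 15 of the 15 detected in each library. The summed level of 8 hypodermis markers was 3616 and 2940 CPM in the E35 fractions of che-2 and 963 to 1424 CPM in the 10 other libraries, with 7 or 8 detected. Most of the E35 sums came from 1 marker, col-19, a collagen gene of the adult cuticle, at 3415 and 2602 CPM there. The 7 other markers summed to 201 and 338 CPM in these E35 fractions, to 594 and 603 CPM in the E36 fractions of che-2, and to 1030 to 1136 CPM in the 8 other libraries. The 12 intestine markers, all detected in every library, summed to 985, 708 and 560 CPM in che-2 AMsh and to 998, 776 and 638 CPM in che-2 non-AMsh. These sums had the order of cpr-9, cpr-4 and cpr-1 in che-2 AMsh, but single intestine markers did not all share it. In che-2 AMsh, elt-7 was at 66.8, 45.3 and 42.2 CPM, vha-6 at 246, 89.8 and 113 CPM and act-5 at 139, 157 and 67.2 CPM. The order of the intestine sum was not particular to it. In che-2 AMsh, 3 coelomocyte markers summed to 104, 71.5 and 61.5 CPM and 9 calpain and necrosis genes to 1303, 978 and 868 CPM. Further lists had other orders: in che-2 AMsh, 4 body muscle markers summed to 3075, 4773 and 3165 CPM and 8 neuron markers to 157, 172 and 184 CPM. The part of these tissues in the protease levels was not tested.

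The second comparison was che-2 against wild type within a fraction. asp-9 was the only member that passed, and it fell in both fractions. This gene lies on chromosome IV at 6185888 to 6189205, on the plus strand, with 7 exons of 1174 bases in the deposited table and 6 piRNA annotations within its bounds.

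asp-9 was at 233, 97.5 and 24.6 CPM in wild type AMsh and at 203, 97.8 and 24.5 CPM in wild type non-AMsh, again in the order E30, E35 and E36. In che-2 AMsh it had 0, 0 and 5 counts (0, 0 and 0.180 CPM), and in che-2 non-AMsh 3, 12 and 17 counts (0.174, 0.707 and 0.797 CPM). All 6 wild type libraries lay above all 6 che-2 libraries. The wild type cultures themselves differed 9.46-fold in AMsh and 8.29-fold in non-AMsh, with nearly the same values in both fractions of a culture.

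The log2 fold change of asp-9 was -10.62 (SE 1.43, adjusted p = 0.0129) in the AMsh fraction, from 118 ± 106 to 0.0602 ± 0.104 CPM. In the non-AMsh fraction it was -7.57 (SE 1.22, adjusted p = 0.0461), from 108 ± 89.8 to 0.559 ± 0.337 CPM. asp-9 passed the filter on low counts through its wild type level alone, and a tested gene near 0 in che-2 had to be higher in wild type. The che-2 AMsh values rest on 5 counts in a single library, so the size of the first fold is poorly known.

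The asp-9 call depended on single libraries in both fractions. In the AMsh fraction it was lost without che-2 AMsh E35 (adjusted p = 0.0550), without che-2 AMsh E36 (0.0680) and with only the 6 libraries compared in the fit (0.111), and it passed in 16 of 19 alternatives, which spanned adjusted p of 8.05e-17 to 0.111. In the non-AMsh fraction it passed in 10 of 19, with adjusted p of 3.11e-11 to 0.286. It was lost there with DESeq2 size factors in edgeR (0.0519), with only the libraries compared (0.0515), and without wild type AMsh E35 (0.0914), wild type non-AMsh E30 (0.105) or E35 (0.111), che-2 AMsh E36 (0.0763), or che-2 non-AMsh E30 (0.0861), E35 (0.199) or E36 (0.286). The direction was the same in every alternative run.

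For the family as a whole, 1 of 25 tested members passed as lower in AMsh, where 0.300% of all tested genes passed as lower and 0.461% in either direction. In non-AMsh it was also 1 of 25, where 0.108% passed as lower and 0.144% in either direction. With DESeq2, 5 members were lower in AMsh (asp-1, asp-6, asp-8, asp-9 and asp-17; 2.32% of genes were lower and 5.29% called) and 5 in non-AMsh (asp-1, asp-6, asp-8, asp-9 and asp-16; 1.95% lower and 4.66% called). The count thus depends on the tool, and the members added by DESeq2 are all aspartyl proteases. Among the added members, asp-16 passed the filter on low counts through wild type alone, as asp-9 did.

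At an unadjusted p under 0.05, 9 of 25 members were lower and 0 higher in AMsh, beside 4.95% of all tested genes lower and 7.88% higher. In non-AMsh 6 were lower and 0 higher, beside 4.50% and 5.81%. Both counts include asp-9 and asp-16, which passed the filter on low counts through wild type alone and so could only be lower in che-2. The median log2 change over the tested members was -0.51 in AMsh, where it was 0.12 over all tested genes, and -0.45 in non-AMsh, where it was -0.01. The 2 fractions share their cultures, so they are not independent.

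The aspartyl proteases lay lower than the cathepsins in this respect. Of 14 tested asp genes, 13 had a log2 change below 0 in AMsh (median -0.92) and 13 in non-AMsh (median -0.89). In both fractions these include asp-9 and asp-16, which were tested through their wild type counts alone. Of the 11 tested cathepsin B, L and Z genes, 6 lay below 0 in each fraction, with medians of -0.23 and -0.18. These are descriptions of the fitted values, not a test of the difference between the families.

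**Figure D4:**
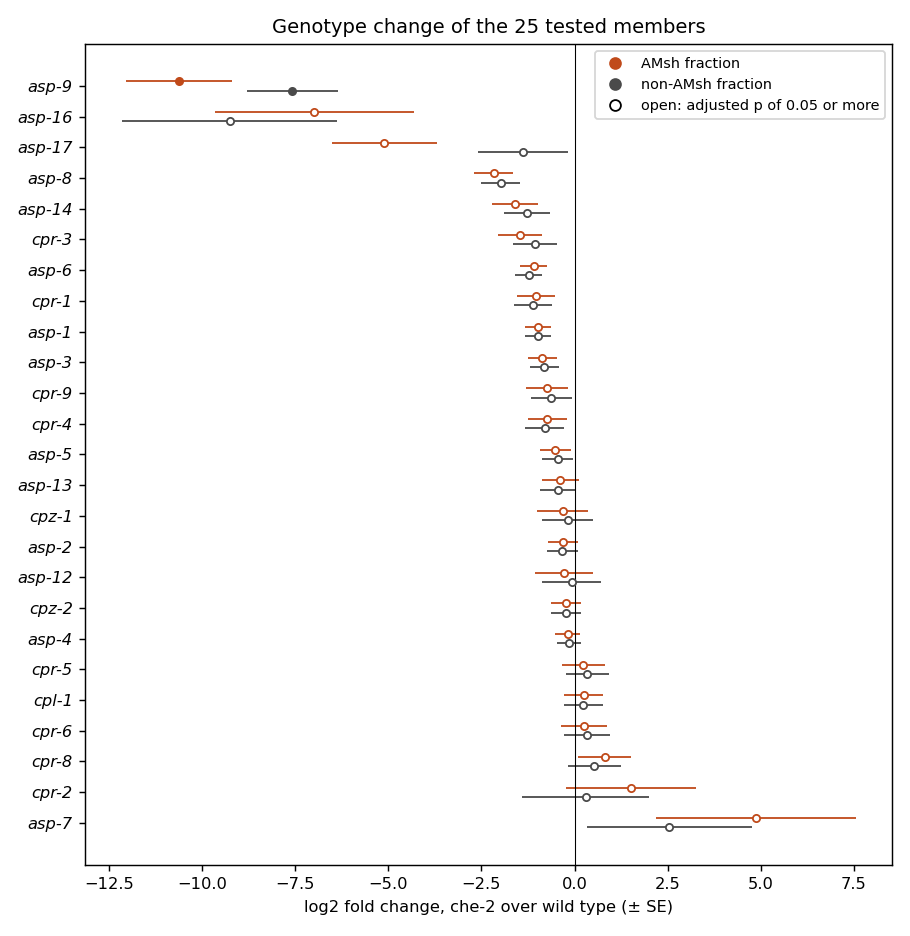
Log2 fold change of che-2 over wild type (x axis) for the 25 tested members, with bars of 1 SE, in the AMsh and the non-AMsh fraction; filled points have an adjusted p under 0.05. asp-9 alone is filled, at -10.62 and -7.57; asp-16 and asp-7 have no count in at least 1 group, so their fitted positions depend on the prior count.

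asp-8, an aspartyl protease on chromosome V at 3024219 to 3027933, came next by p in both fractions. It was at 37.5, 70.3 and 142 CPM in wild type AMsh and 75.3, 80.6 and 162 CPM in wild type non-AMsh, against 27.2, 12.9 and 15.6 CPM in che-2 AMsh and 34.0, 24.6 and 21.8 CPM in che-2 non-AMsh. The genotypes did not overlap in either fraction. The log2 changes were -2.16 (SE 0.52, adjusted p = 0.106) and -1.98 (SE 0.52, adjusted p = 0.148), and neither passed. With DESeq2 asp-8 passed in both (adjusted p = 0.000906 and 0.00582), and with no filter on low counts it passed in AMsh (0.0400); over its 19 alternatives adjusted p reached 0.309 and 0.548.

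asp-6, an aspartyl protease with the neighbours named above, was at 2078, 1383 and 2044 CPM in wild type AMsh and 1034, 969 and 568 CPM in che-2 AMsh. In non-AMsh it was at 2142, 1482 and 2250 CPM in wild type and 926, 943 and 629 CPM in che-2. All che-2 values lay below all wild type values. The log2 changes of -1.10 (SE 0.37, adjusted p = 0.241) and -1.23 (SE 0.37, adjusted p = 0.225) did not pass, and passed with DESeq2 (0.0149 and 0.0108, within ranges over the alternatives that reached 0.480 and 0.698).

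asp-1, known as an intestinal aspartyl protease, was at 4038, 3365 and 4013 CPM in wild type AMsh and 2170, 2169 and 1454 CPM in che-2 AMsh. In non-AMsh it was at 3953, 3491 and 5134 CPM in wild type and 2372, 2435 and 1594 CPM in che-2. The genotypes did not overlap in either fraction, and within a group its highest culture was 1.20- to 1.53-fold above its lowest. The log2 changes were -0.98 (SE 0.35, adjusted p = 0.265) and -0.97 (SE 0.35, adjusted p = 0.317), which passed with DESeq2 (0.00617 and 0.0181; up to 0.494 and 0.836 over the alternatives).

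asp-3, the cathepsin D-like protease of necrotic cell death, was at 4801, 2710 and 4425 CPM in wild type AMsh and 2984, 1861 and 1733 CPM in che-2 AMsh, which overlapped. In non-AMsh it was at 4421, 3237 and 5134 CPM in wild type and 2789, 2251 and 2275 CPM in che-2, which did not. Its log2 changes were -0.86 (SE 0.38, adjusted p = 0.371) and -0.81 (SE 0.38, adjusted p = 0.504). asp-4, its partner in necrotic death, was at 717 ± 160 against 632 ± 163 CPM in AMsh and 791 ± 137 against 717 ± 102 CPM in non-AMsh, wild type first, and overlapped in both.

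asp-5, which lies beside asp-12, was at 1424, 778 and 1507 CPM in wild type AMsh and 1193, 815 and 1839 CPM in wild type non-AMsh. In che-2 it was at 1125, 714 and 761 CPM in AMsh and 1205, 902 and 710 CPM in non-AMsh, and the genotypes overlapped. The log2 changes were -0.51 (SE 0.41, adjusted p = 0.649) and -0.45 (SE 0.41, adjusted p = 0.804). asp-14 was at 285 ± 115 against 94.2 ± 83.0 CPM in AMsh and at 283 ± 111 against 117 ± 39.0 CPM in non-AMsh (-1.60, SE 0.62, adjusted p = 0.302, and -1.28, SE 0.61, adjusted p = 0.517). Its groups overlapped in AMsh and did not in non-AMsh.

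The rare aspartyl proteases asp-17 and asp-16 were also lower in che-2 without passing. With the values given above, the log2 change of asp-17 was -5.10 (SE 1.41, adjusted p = 0.162) in AMsh and -1.37 (SE 1.21, adjusted p = 0.791) in non-AMsh. Its genotypes did not overlap in either fraction. Over the alternatives the AMsh change ranged from -5.63 to -2.05, with adjusted p of 0.000629 (DESeq2, which called it) to 0.498. asp-16 had no count in any che-2 library. Taking 3 counts over the group in place of 0, it was at least 16.6-fold lower in che-2 AMsh and at least 63.3-fold lower in che-2 non-AMsh. Single libraries carry both limits: 51 of the 52 wild type AMsh counts came from E35, without which there is no limit, and 163 of the 234 non-AMsh counts from E30, without which the limit is 28.7-fold. Without E36 it is 25.2-fold in AMsh. Like asp-9, asp-16 passed the filter on low counts through wild type alone. asp-7 went the other way in AMsh, at least 4.51-fold higher in che-2 by the same rule, on 13 counts in 1 library.

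**Figure D5:**
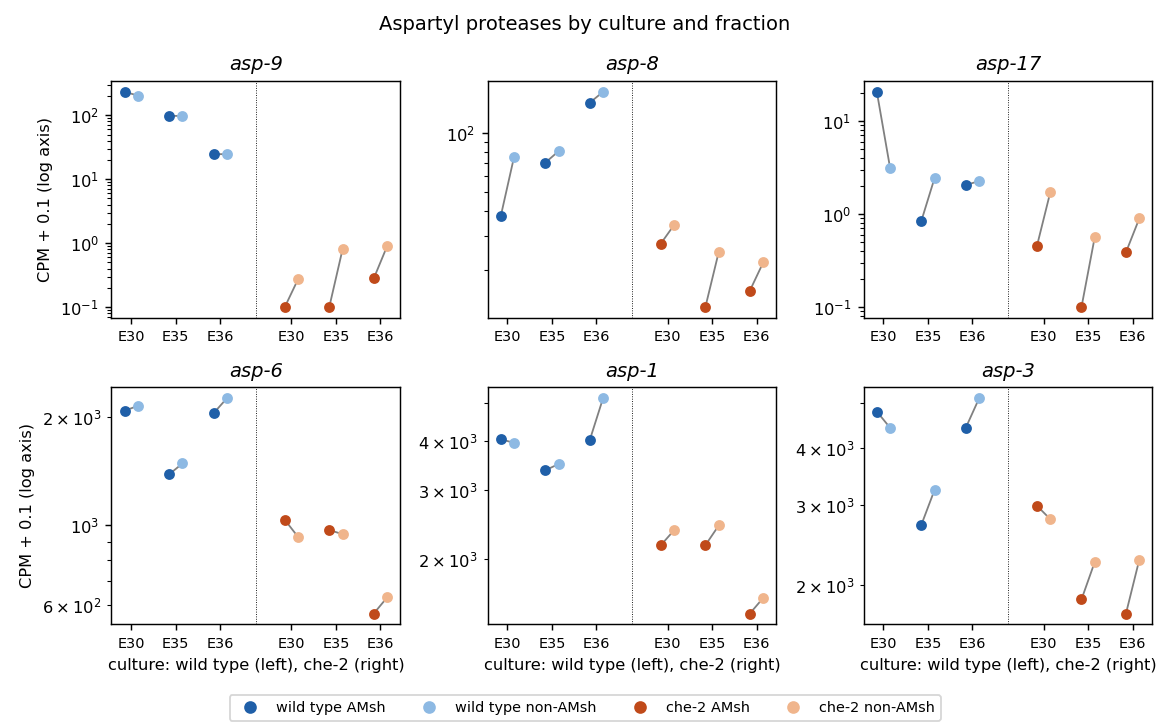
Levels of 6 aspartyl protease genes, by culture (E30, E35 and E36; wild type on the left and che-2 on the right of each panel), with lines joining the fractions of a culture; the y axes are CPM + 0.1 on a log scale. The che-2 values of asp-9, asp-8, asp-17, asp-6 and asp-1 lie below every wild type value of the same fraction.

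Among the cathepsins, none passed in either fraction. The log2 changes of the cathepsin B genes were -1.03 (SE 0.51) and -1.11 (SE 0.51) for cpr-1, -0.73 (SE 0.52) and -0.81 (SE 0.52) for cpr-4, -0.74 (SE 0.55) and -0.63 (SE 0.55) for cpr-9, and 0.24 (SE 0.58) and 0.35 (SE 0.58) for cpr-5, AMsh first. The changes were 0.26 and 0.33 for cpr-6, 0.25 and 0.24 for cpl-1, and -0.32 and -0.18 for cpz-1, and these 3 and cpr-5 turned sign when single libraries were left out. Without che-2 AMsh E30, cpr-5 was at -0.69, cpr-6 at -0.44 and cpl-1 at -0.27 in AMsh, and without che-2 AMsh E35 cpz-1 was at 0.15. The adjusted p in these 7 genes was at least 0.429 in AMsh and 0.485 in non-AMsh.

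cpr-3 was at 65.2, 14.3 and 20.9 CPM in wild type AMsh and 13, 10.6 and 12.6 CPM in che-2 AMsh (log2 change -1.47, SE 0.59, adjusted p = 0.320). In non-AMsh it was at 58.6, 24.8 and 18 CPM in wild type and 15.7, 21.7 and 11 CPM in che-2 (-1.07, SE 0.59, adjusted p = 0.595). The genotypes were apart in AMsh and overlapped in non-AMsh. cpr-2 varied most between cultures, with no count in either wild type E30 library and 89.6 CPM in che-2 AMsh E35.

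asp-2, asp-12, asp-13, cpr-8 and cpz-2 overlapped between the genotypes in both fractions. Over all 12 libraries asp-2 lay between 392 and 927 CPM, asp-13 between 195 and 587 CPM and cpz-2, the second cathepsin Z gene, between 215 and 516 CPM. cpr-8 lay between 2.36 and 37.6 CPM and asp-12 between 2.95 and 21.8 CPM. asp-15, which was not tested, had 7 counts in the AMsh libraries of wild type and 2 in those of che-2; the non-AMsh libraries held 2 counts in wild type and 4 in che-2.

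Counted by overlap, 6 members were lower in che-2 with no overlap in AMsh (asp-1, asp-6, asp-8, asp-9, asp-17 and cpr-3), where 5.68% of all tested genes were lower in this way. In non-AMsh there were 9 (asp-1, asp-3, asp-6, asp-8, asp-9, asp-14, asp-16, asp-17 and cpr-1), beside 10.0%. Of the members named here, asp-9 and asp-16 passed the filter on low counts through wild type alone.

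Markers of some other cell types also lay lower or higher in che-2, though none of those given here passed in either fraction. Coelomocytes are cells that take up and degrade material from the body cavity, and of their 3 markers cup-4 and lgc-26 were lower at an unadjusted p under 0.05 in both fractions. Of all tested genes, 4.95% were lower at this p in AMsh and 4.50% in non-AMsh. The 3 coelomocyte markers summed to 110 to 486 CPM in wild type and 61.5 to 109 CPM in che-2 libraries, and all were detected in every library. The 12 intestine markers summed to 640 to 1332 CPM in wild type and 560 to 998 CPM in che-2, which overlapped. The 8 sperm markers summed to 28.2 to 57.0 and 116 to 232 CPM. In both fractions, 7 of 8 neuron markers had a log2 change below 0 and 5 of 5 germ line markers had one above 0. The part of these cell types in the protease changes was not tested.

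The genotype change in the AMsh fraction did not differ detectably from that in the non-AMsh fraction. For the difference between the genotype changes (AMsh minus non-AMsh), 0 of 25 members and 0 genes passed with edgeR (0.00% of genes). At an unadjusted p under 0.05 there were 0 members and 281 genes (1.68%), and DESeq2 called 0 members and 4 genes (0.0240%). asp-17 (-3.73, SE 1.75, adjusted p = 1.00) and asp-9 (-3.05, SE 1.56, adjusted p = 1.00) had the smallest p, and both rest on a few counts in che-2. Over the 10 most abundant members the difference lay between -0.14 and 0.14, with SEs of 0.49 to 0.98.

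The surroundings of the proteases were examined through lists of lysosomal and related genes. None of 54 other lysosomal genes, 21 subunits of the vacuolar ATPase that acidifies the lysosome, 2 cystatins, which inhibit cysteine cathepsins, 9 calpain and necrosis genes or 15 molting genes passed in any of the 5 comparisons. The median log2 change in AMsh and non-AMsh was -0.38 and -0.27 for lysosomal genes, -0.22 and -0.55 for the ATPase, and -0.58 and -0.51 for molting genes. It was -0.41 and -0.73 for the cystatins and 0.17 and -0.18 for calpain and necrosis genes, beside 0.12 and -0.01 over all tested genes.

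Of the lysosomal genes, 5 were lower and 1 higher at an unadjusted p under 0.05 in AMsh (9.26% and 1.85%, beside 4.95% and 7.88% of all tested genes). In non-AMsh 3 were lower and 1 higher (5.56% and 1.85%, beside 4.50% and 5.81%). cln-3.3, a homologue of a Batten disease gene, had the smallest p of the lysosomal list in AMsh (-1.63, adjusted p = 0.218), and asah-2, an acid ceramidase, in non-AMsh (-1.68, adjusted p = 0.162). The cystatin cpi-2 was at -0.43 (adjusted p = 0.606) and -0.92 (adjusted p = 0.293), and the molting regulator nhr-23 at -0.95 (adjusted p = 0.378) and -1.29 (adjusted p = 0.275).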

How the data were processed

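RNA sequencing read counts per gene were deposited for the 12 libraries as whole numbers, with no normalisation, beside a deposited column of summed exon length in bases (other unit), used for levels per kilobase. Per the labels' protocols, total RNA of 0.4 to 5 ng per sample went through SMARTer amplification and was sequenced on an Illumina HiSeq. Per the submitters' processing notes, CASAVA 1.8.2, FastQC, STAR 2.3 and featureCounts were used, with WBcel235; the settings are not given in the sources used here. Libraries were assigned by the code in the header line above each column and in the titles, since the names of the E35 columns contain E36 and the titles of several E36 libraries carry the replicate number of E30.

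Counts were scaled with TMM and filtered with filterByExpr, and 1 quasi-likelihood model of the 4 group means was fitted to all 12 libraries (edgeR 4.0.16 with limma 3.58.1, R 4.3.3; 2-sided tests; 8 degrees of freedom left for the spread). The SE is the absolute log2 fold change over the square root of F. Alternatives were DESeq2 1.42.0, its size factors in edgeR, upper-quartile scaling, no low-count filter, blocks for code and culture, each library left out, both libraries with the fewest genes left out, and only the libraries compared. Tables and figures used Python 3.11.15, pandas 2.3.3 and matplotlib 3.10.9. The model was tested on simulated data.

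A culture's fractions were sorted from the same animals and are therefore paired; across genes, their deviations from group means correlated at 0.203 to 0.273 (wild type) and 0.159 to 0.503 (che-2). The members, lists and alternatives were chosen with earlier results of these data known. Named with all values were asp-9, members that passed, the 3 with the smallest p per comparison and the 10 with the highest mean CPM; cpl-1, cpr-3 and other members named were chosen after their values were seen. A count of 0 allows up to 3 counts, 0.115 to 0.195 CPM; such limits cover counting error only, since amplified reads are not independent molecules. The labels do not say that the cultures were grown independently, so p-values measure the spread between these samples.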

Additional observations from a re-analysis of the deposited data

How the results depend on the processing

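In the AMsh fraction the 1 member called as lower in che-2 became 5 with DESeq2, 2 with no low-count filter and 0 with only the libraries compared, and 0 to 1 over the libraries left out. In the non-AMsh fraction the 1 became 5 with DESeq2, 0 with DESeq2 size factors in edgeR and 0 with only the libraries compared, and 0 to 1 over the libraries left out. The 3 other comparisons gave 0 members in every alternative. With a replicate block by code the counts of members were 0, 0, 1, 1 and 0, and with the culture as a block 0, 0 and 0 (the last added after the data were seen); no call of a member changed. Codes were not taken to pair the genotypes, since in neither fraction did all 3 correlations of their deviations exceed 0.1: they were 0.0148, -0.00127 and 0.0395 in AMsh and 0.187, 0.0769 and 0.201 in non-AMsh. In non-AMsh each library correlated best with that of its own code. The titles give the same codes to both genotypes, and a batch shared by code was not tested. With the block by code, genes called between genotypes rose from 77 to 218 in AMsh and from 24 to 167 in non-AMsh.

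Among the changes followed over all alternatives, the sign turned in 6 members, and the cause was not tested. Small differences of other members turned too, such as asp-5 between wild type fractions (-0.053 in edgeR and 0.012 with DESeq2). Between wild type fractions, asp-9 (0.13) was -0.0089 with upper-quartile scaling and -0.83 without both libraries with the fewest genes, and -0.83 to 0.95 over the libraries left out; asp-17 (1.62) was -0.89 without both, and -0.89 to 2.16. In AMsh, cpr-6 was -0.00096 with the replicate block and -0.44 to 0.71 over the libraries left out, cpz-1 was 0.037 without both and -1.04 to 0.15, cpr-5 -0.69 to 0.56 and cpl-1 -0.27 to 0.65. In non-AMsh the ranges were -0.33 to 0.57 for cpr-5, -0.061 to 0.67 for cpr-6, -0.22 to 0.52 for cpl-1 and -0.72 to 0.36 for cpz-1. Levels per kilobase on raw library totals moved by less than 1 SD. Depth limits the rare members asp-7, asp-15 and asp-16, and asp-9 in che-2, which rest on few counts; asp-1 and asp-6 had 13432 or more counts in each library.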
